A study of Rattus norvegicus with 6 samples.

Results

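Hypoxia-inducible factor (HIF) genes and a group of their regulators and targets were examined in rat myocardium after ischemia and reperfusion. The 10 genes were Hif1a, Epas1, Egln1, Egln3, Vhl, Bnip3, Ddit4, Ankrd37, Adm and P4ha1, each taken as the entry of the expression table that carries its symbol, out of 28293 genes listed. The table held 3 sham and 3 ischemia/reperfusion (I/R) samples of myocardial tissue from male rats with the genotype WT, and 2 treatments were therefore compared at a single time. In the I/R group the left anterior descending coronary artery was tied for 30 min and then released for 6 h before the heart was taken, and the sample labels carry the same 30 min and 6 h for the sham group. Strain, age and the part of the heart that was sampled are not given in the sources used here, so tissue inside and outside the area at risk cannot be told apart. The labels do not state whether the samples came from separate animals, and the p-values measure only the spread between these samples.

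The alpha subunits of HIF are made continuously and, in normal oxygen, are hydroxylated on prolines by the EGLN enzymes, bound by the von Hippel-Lindau protein and degraded. When oxygen falls, the subunits persist, pair with ARNT and bind short DNA elements with the core letters ACGTG or GCGTG near genes of glycolysis, vessel growth, mitophagy and growth control. Some EGLN genes are themselves HIF targets, which forms a feedback loop, and much of this control acts on the protein, which RNA does not measure.

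Expression was given as FPKM, which are fragments divided by gene length and by the size of the library. Summed FPKM ranged from 894902 to 928941 over the sham samples and from 731063 to 825490 over the I/R samples, and the depth relative to sham replicate 1 was 1.18 and 1.14 in the other sham samples and 0.873 to 0.935 in the I/R samples. The 13 mitochondrially encoded mRNAs held 80.1 to 86.2% of the summed FPKM in the sham samples and 61.8 to 71.5% in the I/R samples. As FPKM are shares of a library, a second scaling over the other genes was computed beside the deposited one, and on it the median log2 fold change over all genes went from 0.29 to -0.48. Cardiomyocyte markers, the defining genes of the labelled tissue, were present in every sample, with 9 genes that summed to 3566 to 12045 FPKM in the sham group and 23528 to 34017 FPKM in the I/R group. In bulk tissue, fewer cells of a type and less RNA per cell cannot be told apart.

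The promoters of the 10 genes were searched for the HIF core, the letters through which HIF binds DNA, and the stretches that held it are shown. RefSeq windows of 300 bases on the assembly GRCr8, from 250 bases before to 50 bases after the transcription start, were found for 10 of 10 genes. ACGTG and GCGTG were searched on both strands, and the palindrome CACGTG counts once on each strand. At least 1 core was found in 41.6% of 33469 rat promoter windows of the same length, and 2 or more sites in 19.2%. In the family, 6 of 10 windows held a core, each of the 6 at 2 or more sites, with 19 sites in all. Ankrd37 held 5 sites, Bnip3 4, Hif1a and P4ha1 3 each, and Egln1 and Ddit4 2 each. The windows of Epas1, Egln3, Adm and Vhl held none of these letters, which says nothing of sites outside them. In the 30-base stretches below, 1 for each of the 6 genes, printed 5′ to 3′ on the strand of the gene and chosen to show the core in its setting, capitals mark 1 core. The Bnip3 stretch also holds the cores from bases -108, -99 and -90 on the opposite strand, which are not marked.
Hif1a (chr6:98359721-98359750, plus strand, core from base -164): ttggctgagagcaACGTGggctggggtggg
Egln1 (chr19:69804721-69804750, minus strand, core from base -56): ggcccggcccgccGCGTGcgcgcggccccc
Bnip3 (chr1:203155044-203155073, minus strand, core from base -98): gcgcacgcgccgcACGTGccacacgcgccc
Ddit4 (chr20:28437159-28437188, minus strand, core from base -138): gagaacgttgcgaACGTGcgcccggtgcct
Ankrd37 (chr16:53001490-53001519, plus strand, core from base -4): tcactgtttgggtACGTGaggccgctgcag
P4ha1 (chr20:27844934-27844963, plus strand, core from base -99): gcactgcgtcctcGCGTGggccagcctggg
Positions of a core are counted from the transcription start, with negative numbers before it, and a match is a description of the letters and not a measured binding site. ACGTG was present in 6 of the 10 windows, against 19.3% of all windows. Of the 10 windows, those of Hif1a, Bnip3 and Ankrd37 held the palindrome CACGTG, against 6.42% of all windows.

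**Figure D1:**
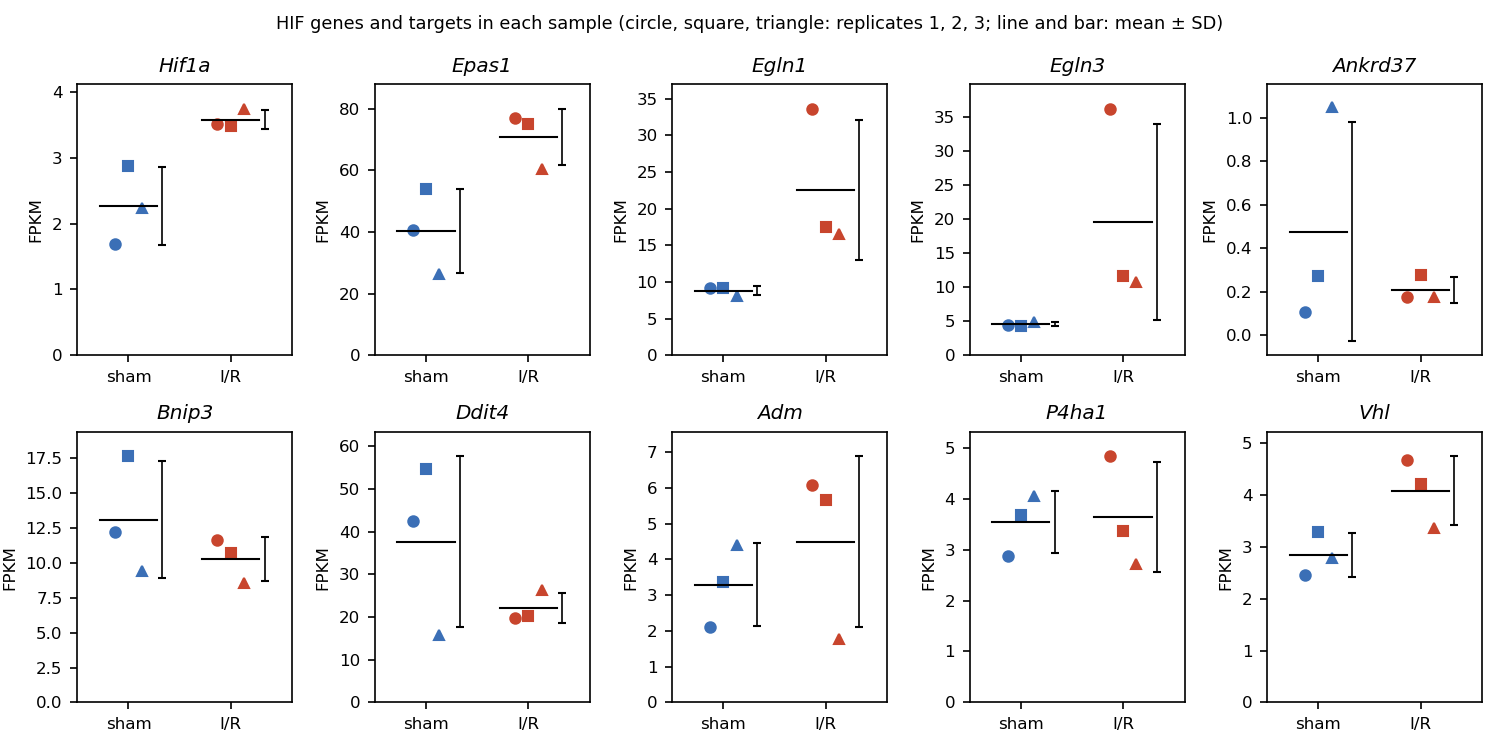
Expression of the 10 genes in FPKM (vertical axes, linear) in 3 sham and 3 I/R samples, with circles, squares and triangles for replicates 1, 2 and 3, a line for the mean and a bar for the SD. The I/R samples lie above every sham sample for Hif1a, Epas1, Egln1, Egln3 and Vhl, and the groups overlap for the other 5 genes.

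Of the 10 genes, 9 passed the filter of a mean of 0.5 FPKM over the 6 samples and were tested with limma on log2(FPKM + 0.1), a scale on which differences of weakly expressed genes come out too small. In the I/R group 3 genes rose, which were Egln3, Egln1 and Epas1, none fell, and 6 were not called at an adjusted p of 0.05. The 3 genes are 33.3% of those tested, and 25.5% of all 10942 genes tested were called higher, while 7.36% were called lower. At an unadjusted p under 0.05 the count was 4, all of them higher, with Hif1a added. At that threshold 3684 of all 10942 genes were higher and 1204 lower. In 5 genes (55.6%) every I/R sample lay above every sham sample, against 37.2% of all genes, and no gene lay wholly below, against 13% of all genes. For each of these 5 the two-sided exact permutation test gave p = 0.1, the smallest that 3 samples against 3 allow. The median log2 fold change over the 9 genes was 0.51, beside 0.29 over all genes tested. Under the scaling without mitochondrial mRNAs the family's median was -0.26, beside -0.48 over all genes, with 1 of 9 higher (Egln3) and 2 lower (Bnip3 and Ddit4), where 7.06% of all genes were called higher and 26.9% lower. The calls of the family on this scale are given below where they differ.

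Hif1a (ENSRNOG00000008292) encodes the broadly expressed alpha subunit. In the sham samples, given here and below in the order of replicates 1 to 3, its values were 1.69, 2.87 and 2.24 FPKM, and in the I/R samples 3.52, 3.48 and 3.74 FPKM. The I/R samples were close to each other and all above the sham samples, which spread over a 1.70-fold range. Sham samples averaged 2.27 ± 0.592 FPKM and I/R samples 3.58 ± 0.141 FPKM (SD, n = 3 each). The log2 fold change was 0.67 (standard error 0.24, 95% interval 0.13 to 1.20) and missed the threshold (limma adjusted p = 0.059). When 1 sample was left out it ranged from 0.48 (without sham replicate 1, limma adjusted p = 0.154) to 0.84, and it passed the threshold only without sham replicate 2 (limma adjusted p = 0.042). On the scale without mitochondrial mRNAs the difference was -0.09. The gene was read from at least 264 to 530 fragments per sample.

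Epas1 (ENSRNOG00000021318) encodes the other main alpha subunit, best known from endothelial and other oxygen-sensing cells. It was listed at 40.5, 53.9 and 26.5 FPKM in the sham samples and 77.1, 74.9 and 60.5 FPKM in the I/R samples. All 3 I/R samples were above the highest sham sample, and sham replicate 3 was the lowest of the 6. Sham samples averaged 40.3 ± 13.7 FPKM and I/R samples 70.8 ± 9.01 FPKM (SD, n = 3 each), and the gene rose by a log2 fold change of 0.86 (standard error 0.29, 95% interval 0.22 to 1.51, limma adjusted p = 0.045). The call was close to the threshold. It was lost when any 1 of sham replicates 1 and 3 or I/R replicates 1 to 3 was left out (log2 fold change 0.59 to 0.97, limma adjusted p 0.061 to 0.174), and kept without sham replicate 2 (1.103, limma adjusted p = 0.042). On the scale without mitochondrial mRNAs the difference was 0.080 (limma adjusted p = 0.837).

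The 9 endothelial markers, which include Pecam1 and Cdh5, summed to 238 to 309 FPKM in the sham samples and 250 to 288 FPKM in the I/R samples, with overlap, and limma called 0 of 9 at an adjusted p of 0.05, with 1 higher and 1 lower at an unadjusted p under 0.05. At that unadjusted threshold 3684 of all 10942 genes were higher and 1204 lower. At the adjusted threshold 25.5% of all genes were called higher and 7.36% lower. Without mitochondrial mRNAs in the scaling, 5 of the 9 were called lower, with a median of -0.99. On that scale 26.9% of all genes were called lower, and the median of all genes was -0.48. The part of endothelial content in the Epas1 values was not tested.

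Within each sample Epas1 was the more abundant alpha subunit per length of gene. The ratio of Hif1a to Epas1 was 0.0441, 0.0550 and 0.0881 in the sham samples and 0.0469, 0.0477 and 0.0634 in the I/R samples. These ranges overlapped, with a log2 difference of -0.20 (two-sided exact permutation p = 0.7). Multiplying a library by 1 factor leaves such a ratio unchanged but for the 0.1 added to each value, whereas quantile normalization does not (0.56). In all, 10 pairs were compared in this way, where 0.2 was the smallest adjusted value reached.

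Arnt, the shared partner of both subunits, lay between 2.93 and 3.81 FPKM in the sham samples and between 2.84 and 4.003 FPKM in the I/R samples, and its log2 fold change of 0.11 was not called (limma adjusted p = 0.743). Epas1 stood 13.1, 13.8 and 8.77 times as high as Arnt in the sham samples and 18.8, 19.7 and 20.6 times in the I/R samples. All I/R ratios were above all sham ratios, and the log2 difference was 0.75 (two-sided exact permutation p = 0.1, adjusted 0.2). The ratio of Hif1a to Arnt was 0.577, 0.761 and 0.773 in the sham samples and 0.882, 0.938 and 1.305 in the I/R samples. It too was higher in all 3 I/R samples (log2 difference 0.56, two-sided exact permutation p = 0.1, adjusted 0.2).

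Egln3 (ENSRNOG00000005053), a prolyl hydroxylase known as a hypoxia-induced member of its family, had the largest log2 fold change of the 9 genes tested. Its values were 4.498, 4.32 and 4.95 FPKM in the sham samples and 36.2, 11.7 and 10.8 FPKM in the I/R samples. The sham samples lay within a 1.14-fold range, whereas I/R replicate 1 was more than 3-fold above the other 2 I/R samples, all of which exceeded every sham sample. Sham samples averaged 4.59 ± 0.321 FPKM and I/R samples 19.6 ± 14.4 FPKM (SD, n = 3 each), a ratio of means of 4.27. The log2 fold change was 1.84 (standard error 0.41, 95% interval 0.92 to 2.75, limma adjusted p = 0.0098). Without I/R replicate 1 it was 1.28 and still called (limma adjusted p = 0.0092). The gene was called higher under all 17 alternatives that tested it, with log2 fold changes of 1.06 to 2.14. The value on the scale without mitochondrial mRNAs was 1.06 (limma adjusted p = 0.033). In 1 of the 17, a filter at 5 FPKM, the gene passed only through the I/R group and could only come out higher. Relative to the median of all genes it stood at 1.55 on the deposited scale and 1.54 on the other.

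Egln1 (ENSRNOG00000063609) encodes the main prolyl hydroxylase of HIF in normal oxygen. It was listed at 9.13, 9.13 and 8.10 FPKM in the sham samples and 33.6, 17.5 and 16.6 FPKM in the I/R samples. The order of the I/R samples was that of Egln3, with replicate 1 about 2-fold above the others and no overlap with the sham group. Sham samples averaged 8.79 ± 0.595 FPKM and I/R samples 22.5 ± 9.58 FPKM (SD, n = 3 each), a ratio of means of 2.56. Egln1 rose by a log2 fold change of 1.27 (standard error 0.29, 95% interval 0.62 to 1.92, limma adjusted p = 0.011) and kept its call when any 1 sample was left out (0.95 to 1.45). On the scale without mitochondrial mRNAs it was 0.49 and not called (limma adjusted p = 0.173).

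I/R replicate 1, which was high for both hydroxylases, also had the lowest share of mitochondrial mRNAs (61.8%) and the highest sum of cardiomyocyte markers (34017 FPKM). Their part in the height of these values was not tested.

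The balance among the hydroxylases was read within samples. The ratio of Egln3 to Egln1 was 0.498, 0.479 and 0.615 in the sham samples and 1.08, 0.672 and 0.656 in the I/R samples, so that it was higher in all 3 I/R samples (log2 difference 0.56, two-sided exact permutation p = 0.1, adjusted 0.2). Egln2, the third prolyl hydroxylase of the family, was listed at 13.0, 12.0 and 10.3 FPKM in the sham samples and 20.8, 17.7 and 17.4 FPKM in the I/R samples. It rose by a log2 fold change of 0.66 (limma adjusted p = 0.041), which was -0.12 on the scale without mitochondrial mRNAs. Egln2 exceeded Egln1 in all 3 sham samples, at 1.42, 1.31 and 1.26 times its level, and stood at 0.620, 1.01 and 1.05 times in the I/R samples. The log2 difference of this ratio was -0.61 (two-sided exact permutation p = 0.1, adjusted 0.2). Hif1an, the asparaginyl hydroxylase that blocks coactivator binding, was not called (0.76, limma adjusted p = 0.111), and its ratio to Egln1 was lower in all 3 I/R samples (log2 difference -0.51, two-sided exact permutation p = 0.1, adjusted 0.2).

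Vhl (ENSRNOG00000010258) encodes the substrate-binding subunit of the ubiquitin ligase that recognises hydroxylated HIF. Its values were 2.45, 3.30 and 2.78 FPKM in the sham samples and 4.67, 4.22 and 3.36 FPKM in the I/R samples. The groups did not overlap, but I/R replicate 3 lay just above sham replicate 2. Sham samples averaged 2.84 ± 0.427 FPKM and I/R samples 4.08 ± 0.666 FPKM (SD, n = 3 each). The log2 fold change was 0.51 (standard error 0.23, 95% interval -0.0067 to 1.02) and was not called (limma adjusted p = 0.116), and it was -0.26 on the scale without mitochondrial mRNAs.

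**Figure D2:**
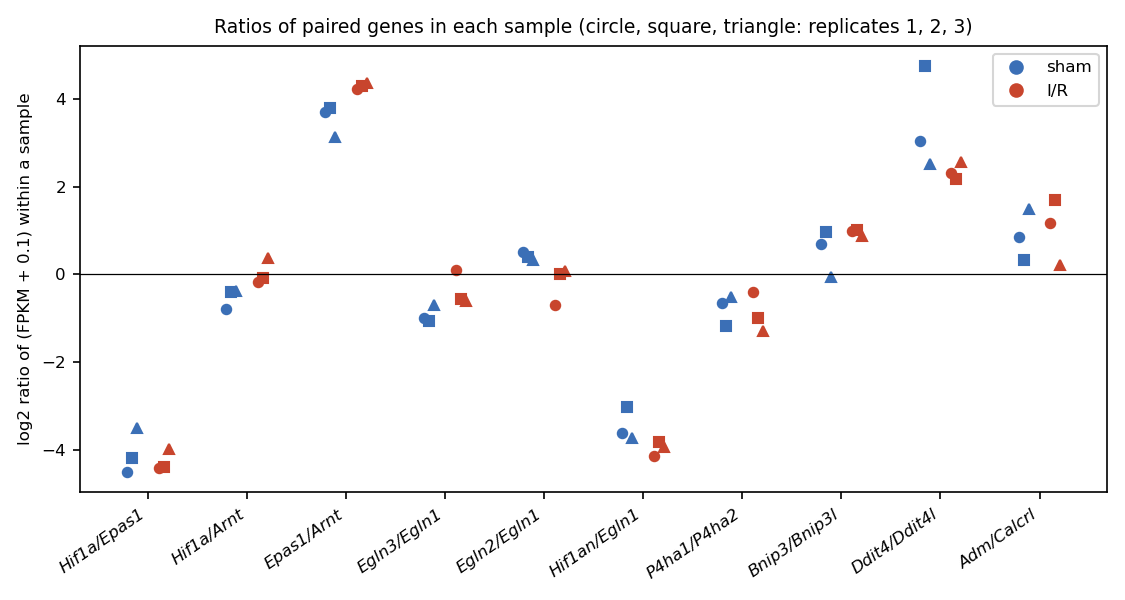
Log2 ratio of (FPKM + 0.1) between 2 genes of the same sample (vertical axis) for the 10 pairs compared (horizontal axis), with sham samples in blue, I/R samples in red, and circles, squares and triangles for replicates 1, 2 and 3. The I/R samples lie above all sham samples for Hif1a/Arnt, Epas1/Arnt and Egln3/Egln1, below them for Egln2/Egln1 and Hif1an/Egln1, and overlap with them for the other 5 pairs.

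Bnip3 (ENSRNOG00000017243), a mitochondrial outer membrane protein that takes part in mitophagy and cell death, was listed at 12.2, 17.6 and 9.39 FPKM in the sham samples and 11.6, 10.7 and 8.55 FPKM in the I/R samples. The groups overlapped, with sham replicate 2 highest and I/R replicate 3 lowest. Sham samples averaged 13.1 ± 4.19 FPKM and I/R samples 10.3 ± 1.58 FPKM (SD, n = 3 each). The log2 fold change was -0.31 (standard error 0.27, 95% interval -0.92 to 0.31, limma adjusted p = 0.414), and on the scale without mitochondrial mRNAs the gene was called lower, at -1.09 (limma adjusted p = 0.011). Its paralog Bnip3l, a receptor of mitophagy, was 7.59, 8.96 and 9.80 FPKM in the sham samples and 5.82, 5.30 and 4.62 FPKM in the I/R samples. Bnip3l fell by 0.73 on the log2 scale (limma adjusted p = 0.029), a call that was lost after rescaling to TPM, without sham replicate 2 or 3 and without I/R replicate 2 or 3. The ratio of Bnip3 to Bnip3l was 1.61, 1.96 and 0.958 in the sham samples and 1.98, 2.002 and 1.83 in the I/R samples (log2 difference 0.42, two-sided exact permutation p = 0.2), which overlapped.

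Ddit4 (ENSRNOG00000057078) encodes a stress-induced inhibitor of mTORC1 signaling. It was listed at 42.5, 54.8 and 15.7 FPKM in the sham samples and 19.9, 20.2 and 26.3 FPKM in the I/R samples. Sham replicate 3 lay below all other samples and sham replicates 1 and 2 above them, a 3.49-fold range within the group, against 1.32-fold in the I/R group. Sham samples averaged 37.7 ± 20.0 FPKM and I/R samples 22.1 ± 3.61 FPKM (SD, n = 3 each). The log2 fold change was -0.60 (standard error 0.41, 95% interval -1.52 to 0.33) and not called (limma adjusted p = 0.289). When 1 sample was left out it ranged from -0.24 (without sham replicate 2, limma adjusted p = 0.703) to -1.13 (without sham replicate 3, limma adjusted p = 0.029), and the other omissions were not called. With all samples on the scale without mitochondrial mRNAs it was -1.38 (limma adjusted p = 0.010). Its paralog Ddit4l was not called (0.49, limma adjusted p = 0.260). The ratio of Ddit4 to Ddit4l ranged from 5.72 to 27.0 in the sham samples and from 4.52 to 5.91 in the I/R samples, which overlapped (log2 difference -1.09, two-sided exact permutation p = 0.2).

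Ankrd37 (ENSRNOG00000031335), an ankyrin repeat gene known as a HIF target, was the least abundant of the family and the one with the most core sites in its promoter window. Its values were 0.107, 0.271 and 1.05 FPKM in the sham samples and 0.175, 0.277 and 0.173 FPKM in the I/R samples. Sham replicate 3 stood 9.81 times above sham replicate 1, and the other 5 samples lay together. The gene had a mean under 0.5 FPKM and was not tested in the main comparison. With no filter on low values its log2 fold change was -0.55 (limma adjusted p = 0.588), and the two-sided exact permutation test gave p = 0.7. These values rest on at least 7 to at least 78 fragments per sample, and the spread of the sham samples exceeded the difference between the groups. Sham replicate 3 was thus the highest sham sample for Ankrd37 and the lowest for Ddit4, Bnip3 and Epas1.

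Adm (ENSRNOG00000027030) encodes adrenomedullin, a vasodilator peptide. Its values were 2.11, 3.36 and 4.41 FPKM in the sham samples and 6.09, 5.65 and 1.76 FPKM in the I/R samples. I/R replicates 1 and 2 were above all sham samples and I/R replicate 3 below all of them. Sham samples averaged 3.29 ± 1.15 FPKM and I/R samples 4.499 ± 2.38 FPKM (SD, n = 3 each), from at least 92 to 315 fragments per sample. The log2 fold change was 0.31 (standard error 0.45, 95% interval -0.69 to 1.32, limma adjusted p = 0.621), and when 1 sample was left out it ranged from 0.0072 (without I/R replicate 1) to 0.87 (without I/R replicate 3, limma adjusted p = 0.079), not called in any case. The gene for its receptor, Calcrl, was not called (0.18, limma adjusted p = 0.708), and the ratio of Adm to Calcrl overlapped between the groups (log2 difference 0.13, two-sided exact permutation p = 0.8).

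P4ha1 (ENSRNOG00000050655) encodes a catalytic subunit of collagen prolyl hydroxylase, an enzyme of matrix assembly. It was listed at 2.87, 3.68 and 4.06 FPKM in the sham samples and 4.83, 3.37 and 2.71 FPKM in the I/R samples. The I/R group held both the highest and the lowest of the 6 values. The means were 3.54 ± 0.605 FPKM (SD, n = 3) and 3.64 ± 1.08 FPKM (SD, n = 3), and the log2 fold change was 0.015 (standard error 0.26, 95% interval -0.58 to 0.61, limma adjusted p = 0.970). The sign was negative under 3 other scalings (-0.23 to -0.75), none of them called. Its paralog P4ha2 was not called either (0.14, limma adjusted p = 0.708), whereas P4hb, the shared other subunit of the enzyme, rose by a log2 fold change of 1.02 (limma adjusted p = 0.011; 0.23 without mitochondrial mRNAs). The ratio of P4ha1 to P4ha2 overlapped between the groups (log2 difference -0.12, two-sided exact permutation p = 0.8).

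**Figure D3:**
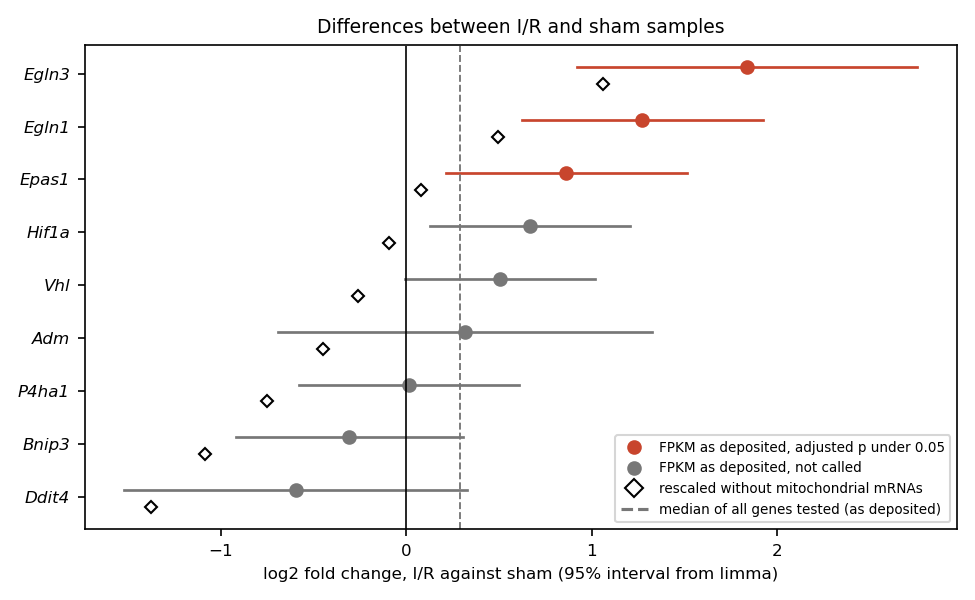
Log2 fold change of I/R against sham (horizontal axis) for the 9 genes tested, with 95% intervals from limma, in red where the adjusted p was under 0.05 and grey where not, and open diamonds for the scale without mitochondrial mRNAs. The intervals of Egln3, Egln1, Epas1 and Hif1a lie above 0, each diamond lies to the left of its circle, and the dashed line marks the median of all genes, 0.29.

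The differences were also read relative to the median of all genes, which removes most of what the choice between these scalings moves. Above the median by nearly the same amount on both scales were Egln1 (0.98 as deposited and 0.97 without mitochondrial mRNAs), Epas1 (0.57 and 0.56), Hif1a (0.37 and 0.39) and Vhl (0.21 and 0.22). Adm lay near it (0.02 and 0.03), and P4ha1 (-0.28 and -0.27), Bnip3 (-0.60 and -0.60) and Ddit4 (-0.89 and -0.90) lay below it. The second scale multiplies each library by 1 factor, so this order follows from the first and is no further support for it. Quantile normalization, which forces all samples to 1 distribution, placed Epas1 at -0.12 from the median.

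By level in the sham group, Epas1 (40.3 FPKM) and Ddit4 (37.7 FPKM) were the highest and overlapped, followed by Bnip3 (13.1 FPKM), which overlapped with Ddit4, and Egln1 (8.79 FPKM), which lay below every Bnip3 value. Egln3 (4.59 FPKM), P4ha1 (3.54 FPKM), Adm (3.29 FPKM), Vhl (2.84 FPKM) and Hif1a (2.27 FPKM) came next, with Egln3 above every P4ha1 value and each of the other 4 overlapping with its neighbour in this order, and Ankrd37 (0.476 FPKM) was lowest. In the I/R group Epas1 (70.8 FPKM) was above every value of every other member. Egln1 (22.5 FPKM), Ddit4 (22.1 FPKM) and Egln3 (19.6 FPKM) followed and overlapped, and Bnip3 (10.3 FPKM) overlapped with Egln3. Adm (4.499 FPKM), Vhl (4.08 FPKM), P4ha1 (3.64 FPKM) and Hif1a (3.58 FPKM) overlapped with their neighbours, and Ankrd37 (0.208 FPKM) was again lowest.

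The remaining genes of the HIF pathway were taken as lists, chosen by known role. Of 14 listed components of oxygen sensing and HIF control, 11 were tested, of which 6 were called higher, 0 lower and 5 not called by limma, with a median log2 fold change of 0.76 beside 0.29 over all genes. These are 54.5% of those tested, against 25.5% of all genes called higher and 7.36% called lower. At an unadjusted p under 0.05 the counts were 7 higher and 1 lower, where 3684 of all 10942 genes were higher and 1204 lower. The largest increases were those of Siah2, a ubiquitin ligase that acts on EGLN proteins (1.69, limma adjusted p = 0.0030), Elob (1.19, limma adjusted p = 0.022) and Cul2 (1.17, limma adjusted p = 0.0099), subunits of the ligase that carries the von Hippel-Lindau protein, and Cited2, a competitor of HIF for its coactivator (1.16, limma adjusted p = 0.010). Centring on the median gave 3 higher and 2 lower, where 2020 and 1554 of all 10942 genes were called. Quantile normalization gave 2 higher and 1 lower, where 1441 and 1559 of all genes were called. The count of 6 was 3 without sham replicate 2, without sham replicate 3 or without I/R replicate 2. On the scale without mitochondrial mRNAs 1 was called higher, Siah2 at 0.95, and 2 lower, the coactivator genes Crebbp (-1.37) and Ep300 (-1.24), which were named after their values were seen, where 7.06% of all genes were called higher and 26.9% lower.

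Of the other known HIF targets, 13 glycolytic genes were tested, of which 11 were called higher and 0 lower by limma (84.6% higher, against 25.5% of all genes), with a median of 1.78. At an unadjusted p under 0.05 the counts were 12 and 0, where 3684 of all 10942 genes were higher and 1204 lower. Of these genes 9 were called higher on the scale without mitochondrial mRNAs, against 7.06% of all genes. With a filter at 5 FPKM, 8 of 8 were called higher, against 1892 of 3784 genes. Of these, Hk1 (3.82 FPKM in the sham group) and Pfkl (4.17 FPKM) passed that filter only through the I/R group and could only come out higher. The 9 cardiomyocyte markers moved about as much, with 6 called higher and a median of 1.92. Without mitochondrial mRNAs their median was 1.13, beside 1.01 for the glycolytic genes. Hk2, the inducible hexokinase, had a log2 fold change of 2.58 (limma adjusted p = 0.0027), and Aldoa, an aldolase gene with related copies among which the authors' counting may have split reads, had 2.49 (limma adjusted p = 0.0053). Hk2 (0.191 FPKM) and Aldoa (0.409 FPKM) averaged under 0.5 FPKM in the sham group and passed the filter only through the I/R group. Genes that enter in this way can only come out higher. With no filter both were also called (limma adjusted p = 0.016 and 0.027). Their sham values rest on at least 19 to 54 and at least 30 to 32 fragments. The glucose transporter Slc2a1 (2.19, limma adjusted p = 0.0014) and the lactate dehydrogenase Ldha (2.19, limma adjusted p = 0.0026) rose as well. Ldha was listed at 43.3, 33.6 and 31.9 FPKM in the sham samples and 251, 135 and 130 FPKM in the I/R samples, with I/R replicate 1 highest as for Egln3 and Egln1.

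Of 25 tested targets outside glycolysis, 9 were called higher, 1 lower and 15 were not called, with a median of 0.14 beside 0.29 over all genes, and the share called higher was 36.0%, against 25.5% of all genes. The largest increases among them were in Bhlhe40, a transcriptional repressor (2.86, limma adjusted p = 0.00051), Hmox1, the inducible heme oxygenase (2.38, limma adjusted p = 0.0016), Ak4, a mitochondrial adenylate kinase (1.95, limma adjusted p = 0.011), and Fam162a, a mitochondrial protein (1.93, limma adjusted p = 0.0041). Ak4 averaged 0.383 FPKM in the sham group and passed the filter only through the I/R group. With no filter Ak4 was also called (limma adjusted p = 0.042). The gene called lower was Bnip3l. On the scale without mitochondrial mRNAs 6 of these genes were called higher and 9 lower, against 7.06% and 26.9% of all genes. Among 12 tested paralogs and partners of the 10 genes, 4 were called higher, led by Ackr3, a receptor that takes up adrenomedullin (1.42, limma adjusted p = 0.0029), and Rheb, an activator of mTORC1 (1.05, limma adjusted p = 0.0072), and 1 lower, again Bnip3l. The share called higher was 33.3%, near the 25.5% of all genes. On the scale without mitochondrial mRNAs the count of lower calls was 1, Bnip3l, and no paralog or partner was called higher.

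**Figure D4:**
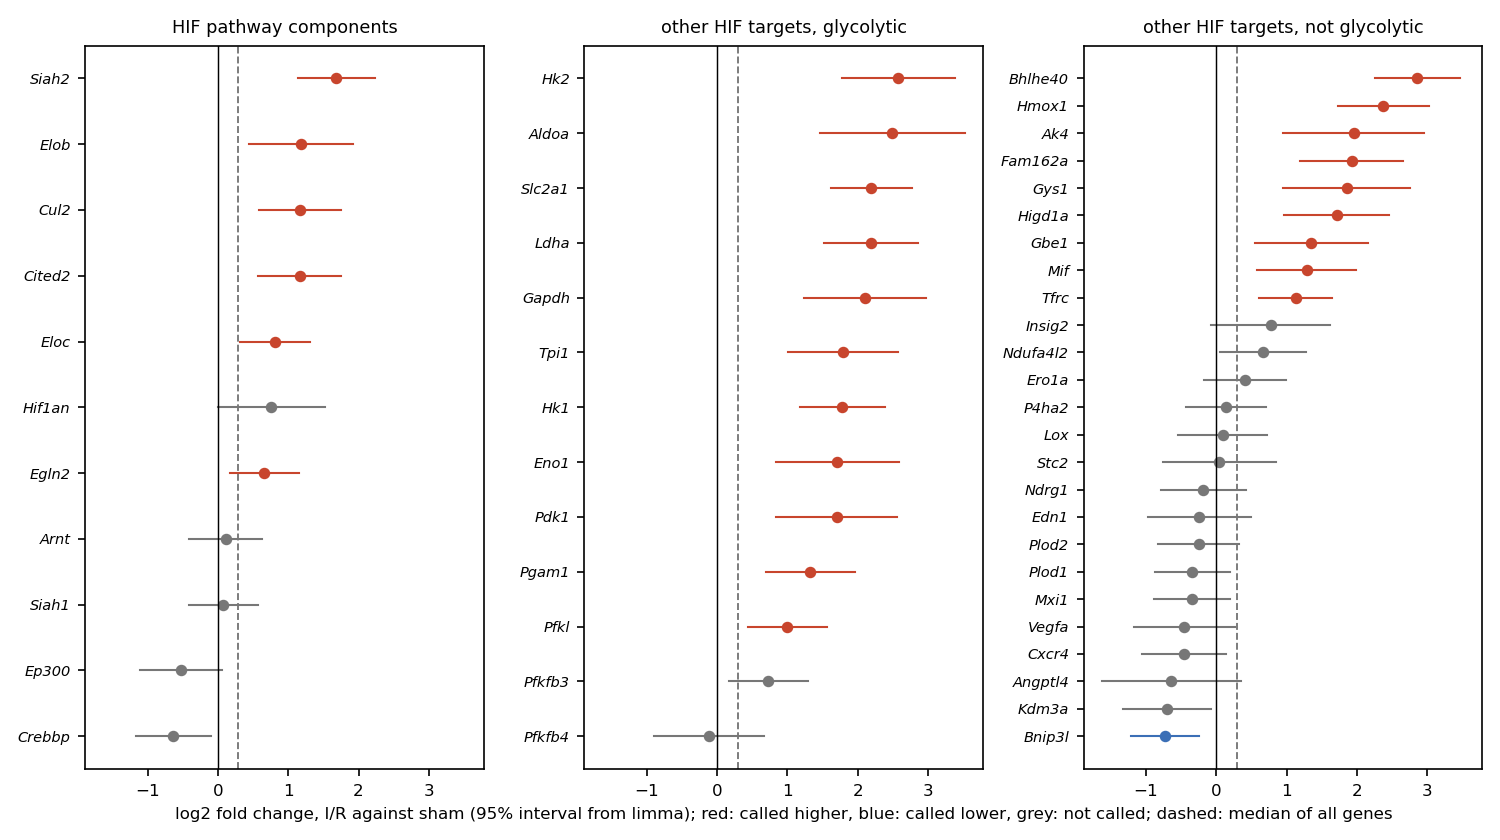
Log2 fold change of I/R against sham (horizontal axis) with 95% intervals from limma for the tested genes of 3 lists of the HIF pathway, in red where called higher, blue where called lower and grey where not called, and a dashed line at the median of all genes tested. The glycolytic targets hold 11 red points of 13, the pathway components 6 of 11, and the targets outside glycolysis 9 of 25 with 1 blue point, Bnip3l.

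Marker genes of other cells moved with the groups in part. The 8 neutrophil and monocyte markers summed to 19.2 to 29.7 FPKM in the sham samples and 50.8 to 117 FPKM in the I/R samples, without overlap. Of 6 tested, 3 were called higher and 1 lower. Of all 10942 genes tested, 25.5% were called higher and 7.36% lower, and in 37.2% every I/R sample lay above every sham sample. The 8 fibroblast markers summed to 596 to 792 FPKM and 820 to 878 FPKM, with 2 of 8 higher (25%), near the share of all genes. On the scale without mitochondrial mRNAs 0 were called higher and 2 lower. Those of smooth muscle, macrophages and red blood cells overlapped between the groups, with 1 higher and 2 lower of 7, 0 higher and 2 lower of 7, and 0 of 1 called. Of the 9 cardiomyocyte markers 6 were called higher. Without mitochondrial mRNAs the counts of higher and lower calls were 2 and 1 for neutrophils and monocytes, 0 and 2 for smooth muscle, 0 and 3 for macrophages and 5 and 0 for cardiomyocytes. On that scale 7.06% of all genes were called higher and 26.9% lower. The part of these cells in the values of the HIF genes was not tested.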

How the data were processed

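RNA from 3 sham and 3 I/R samples of rat myocardium was sequenced with a stranded total RNA kit. The authors deposited 1 table of FPKM per gene and sample. The submitters' processing notes name STAR and HTSeq, without versions. The genome build, annotation, filters and scaling total are not given in the sources used here. Columns were matched to samples by name, and rows of 1 symbol were summed (30452 rows, 28293 genes).

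Log2(FPKM + 0.1) was compared with limma 3.58.1 in R 4.3.3 (intensity trend, Benjamini-Hochberg adjustment, threshold 0.05) in 10942 genes with a mean of at least 0.5 FPKM. Intervals are at 95%. Within-sample ratios were compared with two-sided exact permutation tests (SciPy 1.17.1, Python 3.11.15). The limma fit was tested on simulated data. The 10 genes and all lists were chosen with earlier results of these data known. Named beside them were the genes of the ratio pairs and, per pathway list, up to 4 called genes with the largest log2 fold change in each direction. Pgk1, Flt1, Ramp1, Ramp2, Pln and some globin genes had no matching symbol. One listed target is not reported here and was left out of its list's counts.

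The depth of a sample relative to another was read at genes averaging under 0.05 FPKM, where values differ by whole steps (689 to 1011 genes shared with sham replicate 1). The values of the 10 genes were whole multiples of 1 step within a tolerance of 0.001, from at least 7 to at least 13640 fragments per sample, where a factor common to all samples cannot be seen. These are lower limits, as the true totals are unknown.

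The labels number the replicates 1 to 3 in both groups. Deviations from the group means of same-numbered samples correlated at 0.203, 0.117 and 0.118 across genes, all over 0.1, the rule used for pairing. Sham replicate 3 and I/R replicate 2 also correlated (0.120), so these values do not establish that the numbers pair the samples. The numbers were used as a block in an alternative fit only. The reported fit has no block, since the study's methods pair no samples. The alternatives were pseudocounts of 1 and 0.01, no filter or one at 5 FPKM, quantile normalization, TPM, median centring, a scale that leaves out the 13 mRNAs of mitochondrial DNA, limma without trend, the replicate block, leaving out each sample, the highest row of each symbol, and a threshold of 0.01. Promoter sequence came from RefSeq (GRCr8), whose build may differ from that of the FPKM table.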

Additional observations from a re-analysis of the deposited data

How the results depend on the processing

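The call of Egln3 held under every alternative that tested it. Other pseudocounts, the highest row of each symbol and limma without trend left the members' higher count at 2 or 3. Rescaling without mitochondrial mRNAs gave 1 member higher, 2 lower and a median of -0.26, and turned Hif1a (-0.094), Adm (-0.45), P4ha1 (-0.75) and Vhl (-0.26). Quantile normalization gave 1 higher, 2 lower and a median of -0.023, where 1441 of all 10942 genes were called higher and 1559 lower. It turned Epas1 (-0.14), Adm (-0.023) and P4ha1 (-0.31) and moved Egln1 to 0.58 (limma adjusted p = 0.073). It also turned the log2 ratio differences of Hif1a/Epas1 (0.56), Hif1an/Egln1 (0.15), P4ha1/P4ha2 (0.027) and Adm/Calcrl (-0.061). Centring on the median turned P4ha1 (-0.23) and ended the call of Epas1 (0.61, limma adjusted p = 0.089), as did no filter (limma adjusted p = 0.079) and limma without trend (limma adjusted p = 0.054). Rescaling to TPM brought Hif1a past the threshold (0.86, limma adjusted p = 0.030). A filter at 5 FPKM left 5 members, with 3 called higher and a median of 0.86. Egln3, 1 of the 3, averaged 4.59 FPKM in the sham group and passed this filter only through the I/R group. Under this filter it could only come out higher. Of all 3784 genes that passed it, 1892 were called higher, with a median of 0.66. A threshold of 0.01 left 1 of 9 members called higher, against 1185 of 10942 genes.

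Over all genes, 2790 were called higher and 805 lower (77.6% of calls higher). The counts were 1892 and 166 (91.9%) with a filter at 5 FPKM, 3477 and 527 (86.8%) with TPM, 2020 and 1554 (56.5%) after centring, 1441 and 1559 (48.0%) after quantile normalization, 791 and 3010 (20.8%) without mitochondrial mRNAs, and 1185 and 211 at a threshold of 0.01. The median of all genes was 0.47 with TPM, 0.04 after centring, -0.02 after quantile normalization and -0.48 without mitochondrial mRNAs. Without each sample in turn, all genes called higher ranged from 1526 (without sham replicate 3) to 2567 and lower from 305 (without sham replicate 2; 348 without sham replicate 3) to 880. Members called higher ranged from 2 to 4 and lower from 0 to 1 (Ddit4, without sham replicate 3), their median from 0.40 to 0.64, P4ha1 from -0.20 to 0.20, and the ratio differences of Hif1a/Epas1 from -0.42 to 0.082, P4ha1/P4ha2 from -0.37 to 0.074 and Adm/Calcrl from -0.21 to 0.54. Apart from what the choice of scaling or samples itself fixes, the cause was not tested.

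With the replicate block, pairing the samples by number, the members' calls were 3 higher and 0 lower as without it (limma adjusted p of 0.0024 for Egln3, 0.0031 for Egln1, 0.012 for Epas1 and 0.062 for Hif1a), all genes called were 3085 and 895, and no call of the 10 genes changed. With 3 samples a group, differences of Adm and P4ha1 within the intervals given were not detectable, and the fragments behind Ankrd37 are known only as lower limits.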
